A study of Mus musculus with 8 samples.

Results

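The levels of 9 marker genes of the notochord and of the nucleus pulposus, the gel-like core of the intervertebral disc, were examined in annulus fibrosus, the fibrous ring that surrounds that core. The genes were Shh, Foxa1, Foxa2, Foxf1, Krt8, Krt18, Krt19, Car12 and Cd24a, taken as a measure of disc core tissue in the pools. Each was read from 1 probe set annotated to that gene alone, the one with the highest mean over the 8 arrays. They are 9 of the 22180 genes with such a probe set, and 8 of them passed the filter on low values that left 15526 genes for testing. Shh did not pass.

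The arrays came from thoracic annulus fibrosus of Black 6 mice that were wild type (WT) or ENT1-null, at 2 and at 6 months of age. ENT1 is the equilibrative nucleoside transporter encoded by Slc29a1, which carries adenosine and other nucleosides across the cell membrane, and the null allele lacks exons 2 to 4 of that gene. Each of the 4 groups had 2 arrays, and each array held a pool of 5 to 6 annulus tissues. The labels do not state whether pools within a group hold different mice, so the p-values below measure the spread between these pools, and the number of arrays limits their precision.

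The notochord is the embryonic rod around which the spine forms, and its cells persist in the young mouse disc as the nucleus pulposus. Notochord cells secrete Sonic hedgehog, which signals through the receptor Patched and the Gli transcription factors, and they depend on forkhead (FOX) transcription factors. Their descendants keep an epithelial-like cytoskeleton of simple keratins, which sets them apart from the collagen-producing cells of the annulus.

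Slc29a1 itself was first read as a check of the labels. Its log2 level was 10.71 and 10.69 in the WT pools of 2 months and 9.21 and 9.36 in the ENT1-null pools. The 6-month WT pools read 10.34 and 10.43, and the 6-month ENT1-null pools 8.90 and 8.80. Both ENT1-null pools lay below both WT pools at each age; where its probes lie relative to the deleted exons is not given in the sources used here. Among tissue lists, the mean log2 level over 14 annulus and tendon genes ran from 9.63 to 10.44 over the arrays. Neutrophil, erythroid and B cell lists stood higher in the ENT1-null pools of 6 months than on every other array. Their list means there reached 11.84, 10.57 and 8.16. The mean over 17 cartilage genes was lowest there, at 9.66 and 9.62 against 10.34 on both WT arrays of 6 months, and of 10 skeletal muscle genes 8 fell at that age, with a median difference of -2.34. In bulk tissue, fewer cells of a type and less RNA per cell cannot be told apart.

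Promoter sequence was at hand for 5 of the 9 genes (Foxa1, Foxa2, Krt8, Krt18 and Car12), from RefSeq on GRCm38.p6. The windows of Krt8 and Krt18 are shown because these keratins are neighbours, 23873 bases apart on chromosome 15, and moved together across the arrays. Each window holds the 200 bases before the annotated start and the 20 bases from it, with the start as base 1 and no base 0. The Krt8 window is chr15:102004323-102004542, minus strand, and the Krt18 window is chr15:102028016-102028235, plus strand. Capitals mark matches to TATAAA on either strand.
Krt8: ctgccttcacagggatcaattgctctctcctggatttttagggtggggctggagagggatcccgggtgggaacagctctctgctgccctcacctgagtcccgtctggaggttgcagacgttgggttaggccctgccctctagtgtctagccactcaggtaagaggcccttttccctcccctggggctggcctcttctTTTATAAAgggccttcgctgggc
Krt18: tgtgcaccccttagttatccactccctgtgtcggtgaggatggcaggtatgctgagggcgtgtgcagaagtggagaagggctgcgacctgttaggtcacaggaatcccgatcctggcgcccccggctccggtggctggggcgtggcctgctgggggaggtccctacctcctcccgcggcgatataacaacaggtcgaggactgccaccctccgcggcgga
The Krt8 window held TATAAA at bases -1 to 5 and, overlapping it, its reverse complement TTTATA at -3 to 3. In the Krt18 window, none of the 6 motifs searched was found. TATAAA occurred on 1 strand or the other in 13.6% of all 32851 RefSeq promoter windows of 300 bases.

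The start of Foxa2 is shown because Foxa2 had the largest genotype difference of the 9 genes at 2 months. Of 3 annotated starts, the one at the gene's own end is printed, chr2:148046950-148047169, minus strand, with GGGCGG (a GC box) in capitals.
Foxa2: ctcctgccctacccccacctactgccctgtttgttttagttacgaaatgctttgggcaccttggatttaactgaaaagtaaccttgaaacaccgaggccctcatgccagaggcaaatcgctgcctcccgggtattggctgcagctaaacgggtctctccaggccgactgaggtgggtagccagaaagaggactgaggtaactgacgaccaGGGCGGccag
The GC box lies at bases 11 to 16, and 35.7% of all promoter windows hold GGGCGG on either strand. The annotated start used for Foxa1 is not at the gene's own end but inside the gene (chr12:57540628-57548029). A stretch before that start, also inside the gene, held the forkhead core motif TGTTTAC on the opposite strand (GTAAACA, in capitals). The motif lies at bases -141 to -135, within chr12:57546234-57546263, minus strand.
Foxa1: tatactgctttGTAAACAaagtgagggcca
This motif was found in 3.65% of all promoter windows, and the related TGTTTGC in 5.07%. The other motifs searched on both strands were TGANTCA (AP-1, in 7.81% of windows) and GACCACCCA (Gli, in 0.253%), and neither was found in the windows of the 5 genes. A match describes the letters only.

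Foxa2, Foxa1 and Foxf1, the transcription factors among the markers, were the only markers with a called genotype difference, each at 1 of the 2 ages and each lower in ENT1-null pools. Foxa2 (chr2:148042877-148046969), which is required for the notochord to form, had log2 levels of 8.66 and 8.71 in the WT pools of 2 months and 7.81 and 7.90 in the ENT1-null pools of that age. The 6-month WT pools gave 7.78 and 8.0, and the 6-month ENT1-null pools 7.66 and 7.54. The WT pools of 2 months thus stood alone, while the other 6 arrays lay within 7.54 to 8.0. At 2 months Foxa2 fell by 0.82 ± 0.10 on the log2 scale (SE; 95% interval -1.06 to -0.59; limma adjusted p = 0.0393). That call was lost when only the 4 arrays of 2 months were fitted (limma adjusted p = 0.0598) and over all probe sets (0.117). It was also lost with the replicate number as a block, and without WT replicate 1 or either ENT1-null replicate of that age. Leaving out either ENT1-null array of 6 months lost the call as well. At 6 months both ENT1-null pools again lay below both WT pools, with a difference of -0.29 ± 0.10 that missed the threshold (limma adjusted p = 0.057). The genotype difference was 0.53 ± 0.15 nearer to 0 at 6 months, a change that had an unadjusted limma p of 0.007 and an adjusted p of 0.0715.

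Foxa1 (chr12:57540628-57548029) had log2 levels of 6.95 and 7.02 in the 2-month WT pools, and 6.74 and 6.87 in the 2-month ENT1-null pools. The 6-month WT pools gave 6.89 and 7.13 and the 6-month ENT1-null pools 6.77 and 6.48. The genotypes did not overlap at either age, and the lowest array was ENT1-null replicate 2 of 6 months. The difference was -0.18 ± 0.13 at 2 months (limma adjusted p = 0.487) and -0.39 ± 0.13 at 6 months (95% interval -0.68 to -0.09; limma adjusted p = 0.0454). The call at 6 months lay close to the threshold and was lost under several alternatives, among them no filter on low values (limma adjusted p = 0.0612), centring of arrays on their medians (0.0711) and the fits without ENT1-null replicate 2 of 6 months (-0.24, adjusted p = 0.209) or WT replicate 2 of 6 months (-0.26, adjusted p = 0.236).

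Foxf1 (chr8:121084386-121088154), a forkhead factor of mesenchyme beneath epithelia that is used as a nucleus pulposus marker, ran stepwise across the groups. It read 9.76 and 9.82 in WT pools of 2 months, 9.52 and 9.65 in ENT1-null pools of 2 months, and 9.57 and 9.61 in WT pools of 6 months. In the ENT1-null pools of 6 months it read 9.15 and 9.14, the lowest of all. The middle groups overlapped each other, and neither overlapped the highest or the lowest group. Foxf1 fell by 0.44 ± 0.08 in ENT1-null pools at 6 months (95% interval -0.64 to -0.25; limma adjusted p = 0.00485), a call kept under every alternative setting run, including each left-out array. At 2 months the difference was -0.21 ± 0.08 (limma adjusted p = 0.234), and the 2 differences did not differ past the threshold (-0.24 ± 0.12, adjusted p = 0.244).

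The 3 keratins of simple epithelia gave a different picture: their levels differed most between pools of the same group, and no genotype or age difference was called. Krt8 (chr15:101996711-102004342) and its partner Krt18 (chr15:102028216-102032026) assemble together into keratin filaments, and Krt19 (chr11:100140810-100145926) is a smaller acidic keratin used as a nucleus pulposus marker. Krt8 was 9.29 and 8.58 in WT pools of 2 months, 8.89 and 8.77 in ENT1-null pools of 2 months, 8.99 and 9.86 in WT pools of 6 months, and 10.06 and 8.0 in ENT1-null pools of 6 months. Both the highest and the lowest Krt8 level of the 8 arrays therefore came from the ENT1-null pools of 6 months, which differed by 2.05 on the log2 scale. Krt18 was 8.16 and 7.52, 7.60 and 7.63, 7.63 and 8.45, and 8.28 and 7.15 in the same order of groups, and Krt19 was 8.17 and 7.34, 7.88 and 7.70, 7.34 and 8.33, and 8.59 and 6.87. All 3 were higher in replicate 1 of the WT pools of 2 months and of the ENT1-null pools of 6 months, and in replicate 2 of the WT pools of 6 months. Genotype groups overlapped at both ages for each of the 3. A second single-gene probe set of Krt18, not used, read under the filter level of 6.21 on every array. Its levels were 5.3 and 5.28, 5.31 and 5.08, 5.52 and 5.3, and 5.4 and 4.99 in the same order of groups. In the WT pools of 6 months it was lower in replicate 2, where the probe set used was higher.

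**Figure D1:**
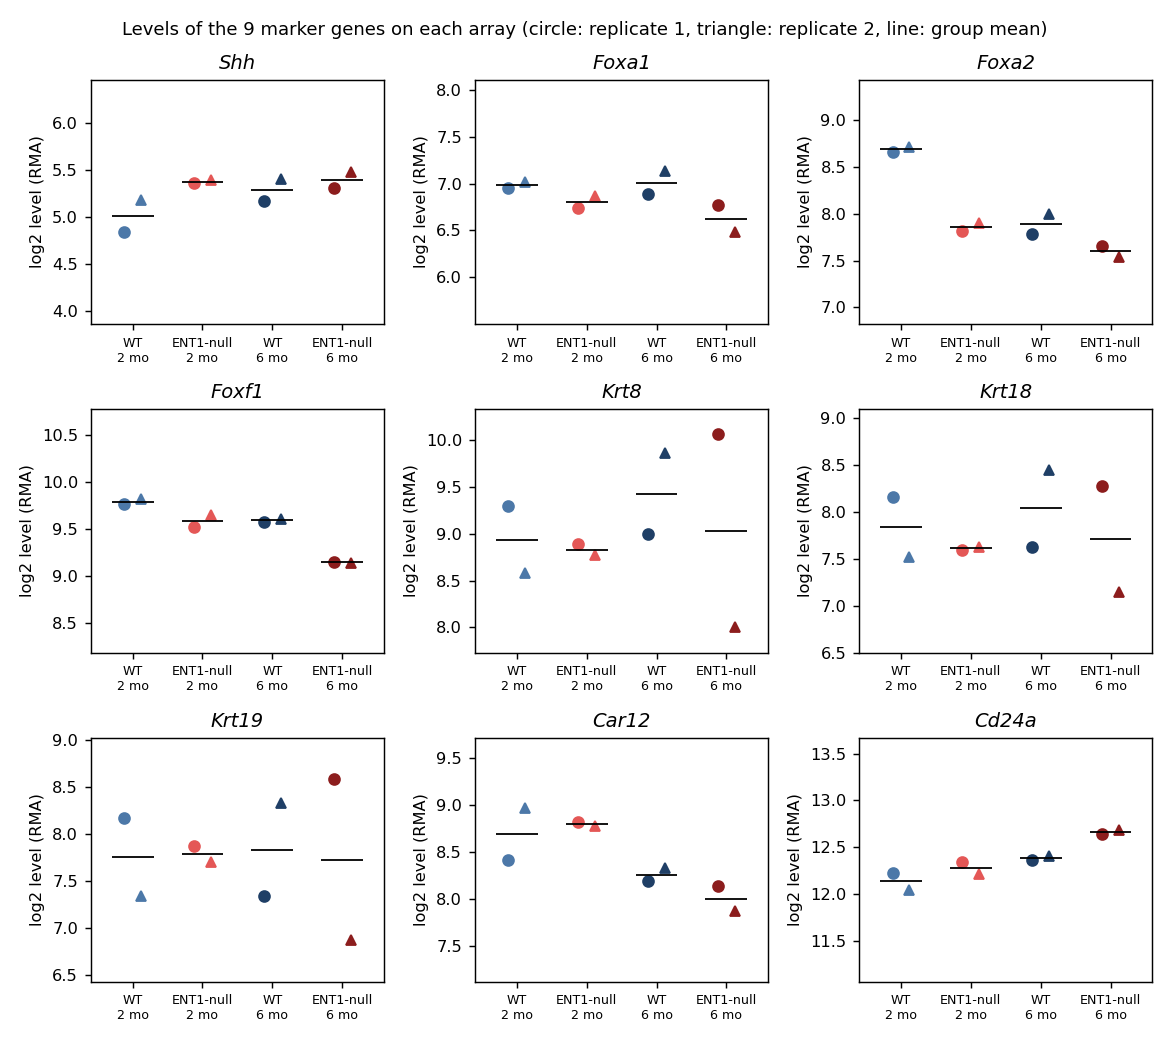
RMA log2 level (vertical axis, the same span of 2.6 in each panel) of each of the 9 marker genes by group, with replicate 1 as a circle, replicate 2 as a triangle and the group mean as a line. Foxa2 is high only in the WT pools of 2 months (8.66 and 8.71), Foxf1 is lowest in the ENT1-null pools of 6 months (9.15 and 9.14), and the keratins spread widely within groups.

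For Krt8 the genotype difference was -0.10 ± 0.61 at 2 months (95% interval -1.52 to 1.31; limma adjusted p = 0.95) and -0.39 ± 0.61 at 6 months (-1.81 to 1.02; adjusted p = 0.64). These intervals admit differences of more than 1 on the log2 scale in either direction, so a change of that size was not resolved. Krt18 differed by -0.22 ± 0.40 and -0.33 ± 0.40, and Krt19 by 0.04 ± 0.56 and -0.11 ± 0.56, at 2 and 6 months (limma adjusted p from 0.549 to 0.983). At 6 months 1 array decided the direction of Krt8. Without ENT1-null replicate 1 the difference was -1.42 with a limma adjusted p of 0.0405. That group then held only the lowest Krt8 array of the 8, a lone pool assumed to vary like the other groups. Without ENT1-null replicate 2 the difference was 0.63.

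The pooled standard deviation between the 2 arrays of a group was 0.83 for Krt8, 0.54 for Krt18 and 0.76 for Krt19. Of all tested genes, 99.8%, 99% and 99.7% had a smaller one. The median gene had 0.11. For Foxa2 it was 0.10, against a standard deviation of 0.47 for its 4 group means, and for Foxf1 0.05 against 0.27. Cd24a had 0.08 against 0.22 and Car12 0.22 against 0.37. Foxa1, at 0.14 against 0.18, was the closest of these to equal. The keratins showed the opposite order, with group means that varied by 0.26 (Krt8), 0.18 (Krt18) and 0.05 (Krt19), each less than its spread between pools.

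**Figure D2:**
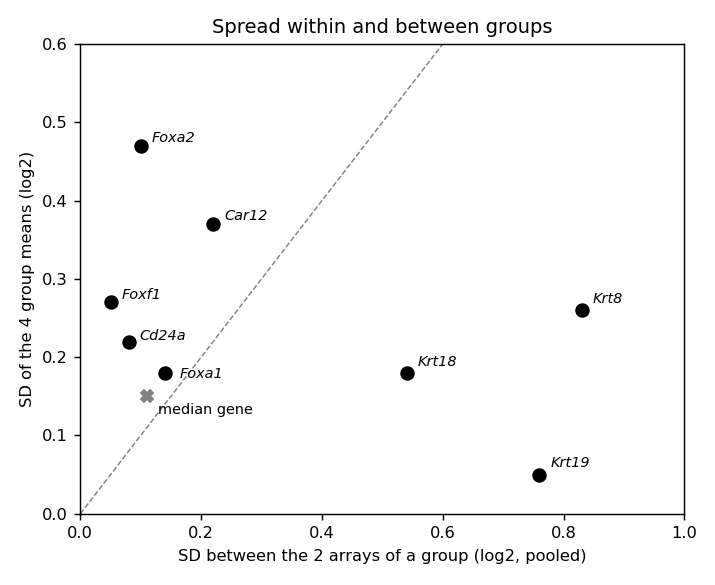
Pooled SD between the 2 arrays of a group (horizontal axis, log2) against the SD of the 4 group means (vertical axis, log2) for the 8 tested markers and the median gene, with a dashed line where they are equal. Krt8, Krt18 and Krt19 lie to the right of the line at 0.54 to 0.83, and the other 5 markers lie above it.

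The keratins varied together. Over the 8 arrays Krt8 and Krt18 had a Pearson r of 0.96 (exact permutation p = 0.000471, 0.00648 after Benjamini-Hochberg adjustment over 28 pairs of markers) and a Spearman rho of 0.95 (exact permutation p = 0.00114, adjusted 0.016). Krt8 and Krt19 had r = 0.94 (exact permutation p = 0.000694, adjusted 0.00648) and rho = 0.93 (0.00223, adjusted 0.0208), and Krt18 and Krt19 had r = 0.93 (0.00184, adjusted 0.0128) and rho = 0.88 (0.00724, adjusted 0.0338). Without the 2 arrays farthest from the Krt8 median, both ENT1-null arrays of 6 months, r of Krt8 was 0.96 with Krt18 and 0.83 with Krt19. For Krt18 with Krt19, r was 0.90 without the 2 arrays farthest from the Krt18 median. Those were WT replicate 2 and ENT1-null replicate 1 of 6 months. With the transcription factors, Krt8 had r = 0.02 for Foxa2, -0.03 for Foxf1 and 0.52 for Foxa1 (exact permutation p = 0.184, adjusted 0.369). The last became -0.50 without the 2 arrays farthest from the Foxa1 median, replicate 2 of both genotypes at 6 months.

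Among the 8 tested markers, only Krt8 itself and Krt19 had the array order of Krt8 within all 4 groups. Krt18 broke it in the ENT1-null pools of 2 months, and Foxa1, Foxa2 and Foxf1 in both groups of 2 months. Car12 broke it in the WT pools of 2 months and Cd24a in the ENT1-null pools of 6 months. The order of Krt8 was then looked for in other genes known from notochord and nucleus pulposus. Of 12 tested genes of that kind besides the 9 markers, 6 had the array order of Krt8 within all 4 groups. These were Chrd, Ncam1, Gpc3, Pax1, Car3 and Slc2a1, which is 50% against 8.6% of all tested genes (1336 of 15526). A gap of any size counted, and those of Pax1 in the 6-month groups were only -0.1 (WT) and 0.05 (ENT1-null). Nog and A2m ran opposite to Krt8 in both 2-month groups and in the WT 6-month group. Cdh2, Basp1, Anxa3 and Lgals3 did not have the order of Krt8 either. None of 17 cartilage genes, 10 skeletal muscle genes or 10 neutrophil genes had it, and 1 of 14 annulus genes did. Among the other lists, 3 of 12 carbonic anhydrases, 3 of 18 hedgehog genes and 1 of 8 forkhead relatives had it. Car3 is on both the carbonic anhydrase and the notochord list and is counted in each. A few genes with wide gaps were followed after their values had been seen. Gpc3, a cell-surface heparan sulfate proteoglycan, differed between replicate 1 and replicate 2 by 0.64, 0.11, -1.29 and 1.85 in the WT 2-month, ENT1-null 2-month, WT 6-month and ENT1-null 6-month groups, where Krt8 differed by 0.70, 0.12, -0.87 and 2.05. Dsp, the desmosomal plaque protein desmoplakin to which keratin filaments attach, differed by 0.82, 0.47, -1.25 and 1.59. Snap25, a protein of neuronal vesicle release, differed by 1.04, 0.39, -0.31 and 2.41, so a gene of another tissue's list had the same order. It was 1 of 5 tested neural and glial genes with that order. The mean over the neural and glial list was 6.9 and 6.45, 6.61 and 6.69, 6.55 and 6.59, and 7.13 and 6.53 in the same order of groups. Among epithelial genes, Epcam was below the filter level on every array (4.79 to 5.34) and Cdh1, E-cadherin, ranged only from 6.94 to 7.20. Of 11 tested epithelial genes, 3 had the order of Krt8 (Krt7, Dsp and Rab25). The mean over the epithelial list was between 6.35 and 6.54 on all arrays, and the part of any of these tissues in the keratin levels was not tested.

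**Figure D3:**
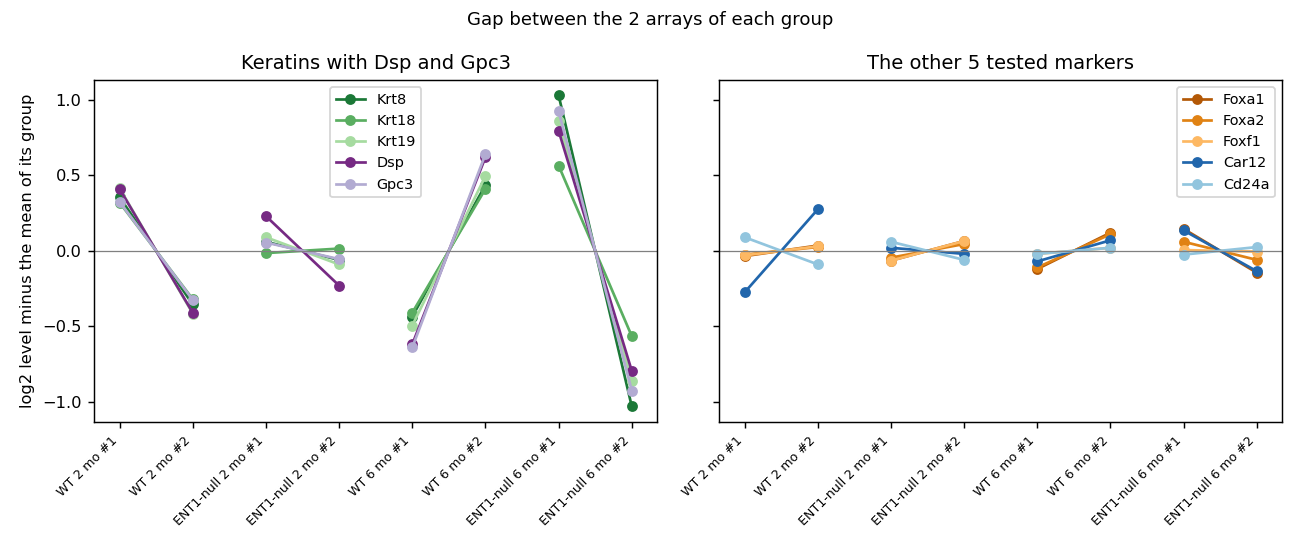
Deviation of each array's log2 level from the mean of its group (vertical axis) for the keratins with Dsp and Gpc3 on the left and for the other 5 tested markers on the right, with the 2 arrays of a group joined. The keratins, Dsp and Gpc3 swing the same way in the WT 2-month, WT 6-month and ENT1-null 6-month groups, by up to 2.05 for Krt8, while Foxf1 and Cd24a on the right differ by at most 0.18 and Car12 by up to 0.55.

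Shh (chr5:28456840-28467101), the secreted ligand, lay under the filter level in its single-gene probe set. Its log2 level was 4.84 and 5.18 in the 2-month WT pools and 5.36 and 5.39 in the 2-month ENT1-null pools, then 5.17 and 5.4 in the 6-month WT pools and 5.31 and 5.48 in the 6-month ENT1-null pools. All 8 arrays lay under the filter level of 6.21, so it was not tested. A second probe set, annotated to Shh and to 9530036O11Rik together and so not used, read 6.91 to 7.41. In a fit with no filter the difference was 0.37 ± 0.14 at 2 months (limma adjusted p = 0.259) and 0.11 ± 0.14 at 6 months (adjusted p = 0.6). Noto, another notochord transcription factor, lay under the filter level as well, between 5.56 and 5.97. The T gene (Brachyury) was not analysed here.

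Other genes of the hedgehog pathway were measured above the filter, and most of them fell in ENT1-null pools at 6 months. Of 18 tested genes of the pathway besides Shh, 11 fell and none rose, with a median difference of -0.64 against -0.03 over all tested genes, of which 38.8% were called (17.6% lower). The 7 not called included 2 other ligands, Ihh (-0.30 ± 0.14, limma adjusted p = 0.12) and Dhh (-0.08 ± 0.15, adjusted p = 0.682). The rest were Disp1, Scube2, Sufu, Kif7 and Stk36. Ptch1, the hedgehog receptor and itself a target of the pathway, read 11.47 and 11.36 in the 2-month WT pools and 11.21 and 11.25 in the 2-month ENT1-null pools. It read 11.28 and 11.32 in the 6-month WT pools and 10.25 and 10.43 in the 6-month ENT1-null pools. It fell by 0.96 ± 0.09 at 6 months (limma adjusted p = 0.000453). The ENT1-null pools of 6 months stood below the other 6 arrays. Gli1, a transcription factor that is both an effector and a target, fell by 0.75 ± 0.09 (limma adjusted p = 0.00087), and Gli2 fell by 1.03 ± 0.10 (adjusted p = 0.000486). Hhip, a hedgehog-binding inhibitor, fell by 1.68 ± 0.17, and Boc, a coreceptor, fell by 1.35 ± 0.14 (limma adjusted p = 0.00052 and 0.00057). At 2 months none of the 18 genes passed the limma test, with a median difference of -0.20 against -0.04 over all tested genes. An unadjusted limma p below 0.05 was found for 6 of the 18, and for 3008 of all 15526 tested genes. The fall at 6 months stood beside lower cartilage genes, of which 12 of 17 fell with a median of -0.82, and higher erythroid and neutrophil genes, of which 6 of 6 and 10 of 10 rose with medians of 2.29 and 2.56. The part of these tissues in the hedgehog values was not tested.

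**Figure D4:**
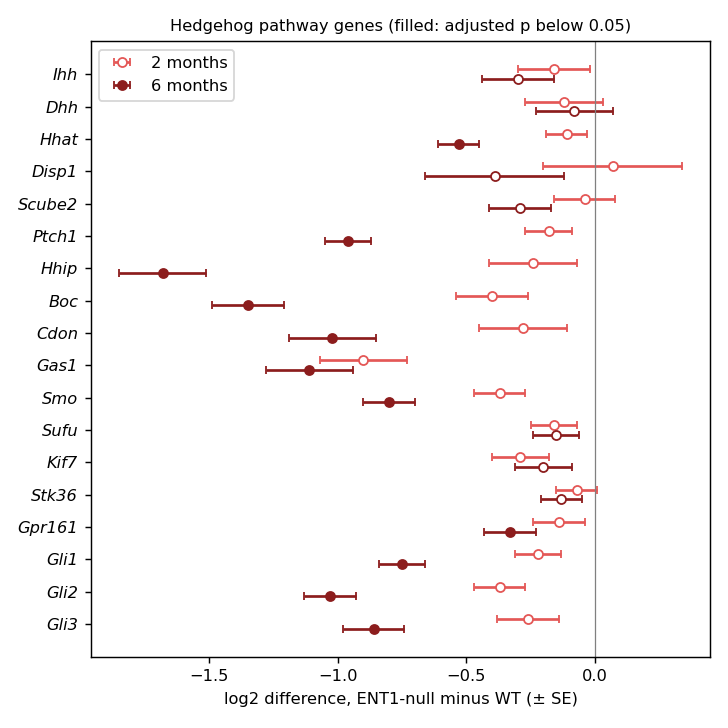
Log2 difference, ENT1-null minus WT (horizontal axis, ± SE), of 18 hedgehog pathway genes at 2 months (light red) and 6 months (dark red), with filled points where the limma adjusted p was below 0.05. At 6 months 11 points are filled, all below 0, and at 2 months none is.

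Car12 and Cd24a, the enzyme and the surface protein among the markers, moved with age in opposite directions in ENT1-null pools. Car12 (chr9:66712296-66766845), a membrane-bound carbonic anhydrase used as a nucleus pulposus marker, gave 8.42 and 8.97 in the 2-month WT pools, and 8.82 and 8.78 in the 2-month ENT1-null pools. By 6 months the WT pools gave 8.19 and 8.33 and the ENT1-null pools 8.14 and 7.87, each below all 4 arrays of 2 months. In ENT1-null pools it fell by 0.80 ± 0.18 from 2 to 6 months (95% interval -1.22 to -0.39; limma adjusted p = 0.0176). The difference with age in WT pools was -0.44 ± 0.18 (limma adjusted p = 0.358), and the test of the 2 age differences against each other gave -0.37 ± 0.25 (adjusted p = 0.4). Between genotypes Car12 differed by 0.11 ± 0.18 at 2 months and -0.26 ± 0.18 at 6 months, neither called (limma adjusted p = 0.775 and 0.29). The age call in ENT1-null pools was lost when replicate 1 or 2 of 2 months or replicate 2 of 6 months was left out (limma adjusted p = 0.0876, 0.0631 and 0.0991).

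Cd24a (chr10:43579169-43584265), a small glycosylated surface protein of nucleus pulposus cells that is also abundant on immature B cells, neutrophils and red cell precursors, gave 12.23 and 12.05 in the 2-month WT pools, and 12.34 and 12.22 in the 2-month ENT1-null pools. The 6-month WT pools gave 12.37 and 12.41, and the 6-month ENT1-null pools gave 12.64 and 12.69, the highest of all. It rose by 0.38 ± 0.09 with age in ENT1-null pools (95% interval 0.16 to 0.60; limma adjusted p = 0.0255), a call lost without any 1 of the 4 ENT1-null arrays (adjusted p from 0.0604 to 0.111). The difference with age in WT pools was 0.25 ± 0.09 (limma adjusted p = 0.326). The genotype difference at 6 months was 0.27 ± 0.09, with no overlap of the groups (limma adjusted p = 0.0551). Blood-forming cell lists were also highest in the ENT1-null pools of 6 months: the B cell list mean was 8.16 and 8.15 there against 7.35 and 7.0 in WT, and the neutrophil mean 11.84 and 11.78 against 10.17 and 8.60. Their part in the Cd24a level was not tested.

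Across the 8 arrays Cd24a ran opposite to Foxf1 (r = -0.96, exact permutation p = 0.00067, adjusted 0.00648 over 28 pairs) and to Car12 (r = -0.86, exact permutation p = 0.00682, adjusted 0.0382). With Foxf1, r was -0.87 without the 2 arrays farthest from the Foxf1 median, both ENT1-null arrays of 6 months. With Car12, r was -0.64 without the 2 arrays farthest from the Car12 median. Those were WT replicate 2 of 2 months and ENT1-null replicate 2 of 6 months. Both correlations are taken across the 4 groups, whose means differ, and the relation within groups was not computed. Foxa2 and Foxf1 had rho = 0.95 (exact permutation, adjusted p = 0.016) but r = 0.82 (adjusted p = 0.0986), also across the 4 groups. The permutations for all pairs of markers exchanged arrays freely between groups. Their p-values therefore cannot separate a relation within groups from differences between group means.

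The counts of called markers stand beside those of all genes. At 2 months 1 of the 8 tested markers was called, Foxa2, where 0.683% of all tested genes were called (106 of 15526) and 0.386% were lower, and 3 were lower without overlap (the 3 FOX genes), as were 33.2% of all genes. At 6 months 2 were called, Foxa1 and Foxf1, both lower, where 38.8% of all genes were called in either direction and 17.6% lower. At 6 months 4 markers were lower without overlap (the FOX genes and Car12) and 1 was higher (Cd24a), against 36.8% and 35.6% of all genes. With 8 genes tested, these shares rest on few genes. The median difference of the 8 tested markers was -0.14 at 2 months and -0.31 at 6 months, against -0.04 and -0.03 over all tested genes. For the change of the genotype difference with age, no marker was called by limma, where 4.45% of all genes were called. At an unadjusted limma p below 0.05 that test gave 1 of the 8 markers and 4186 of all 15526 genes.

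With age, no marker was called in WT pools, where 0% of all tested genes were called. At an unadjusted limma p below 0.05 there were 4 markers and 2067 genes. Foxa2 had the largest of these differences, -0.79 ± 0.10 (95% interval -1.03 to -0.56; limma adjusted p = 0.119), with both 6-month WT pools below both 2-month WT pools. Without overlap between ages, 3 markers were lower at 6 months in WT pools (Foxa2, Foxf1 and Car12) and 1 was higher (Cd24a), against 35.9% and 13.5% of all genes. In ENT1-null pools 3 markers were called, Foxf1 (-0.44 ± 0.08, limma adjusted p = 0.0103) and Car12 lower and Cd24a higher, where 22.2% of all genes were called (11.9% higher and 10.2% lower). The call of Foxf1 was lost without ENT1-null replicate 2 of 6 months (limma adjusted p = 0.0507). Foxa2 differed by -0.26 ± 0.10 there (limma adjusted p = 0.113), again without overlap. The same 4 markers did not overlap between ages in ENT1-null pools, in the same directions, against 29.8% of all genes lower and 30% higher. Genotype comparisons at 6 months and age comparisons in ENT1-null pools share the ENT1-null arrays of 6 months, so that the values of Foxf1 in both rest on the same 2 pools.

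**Figure D5:**
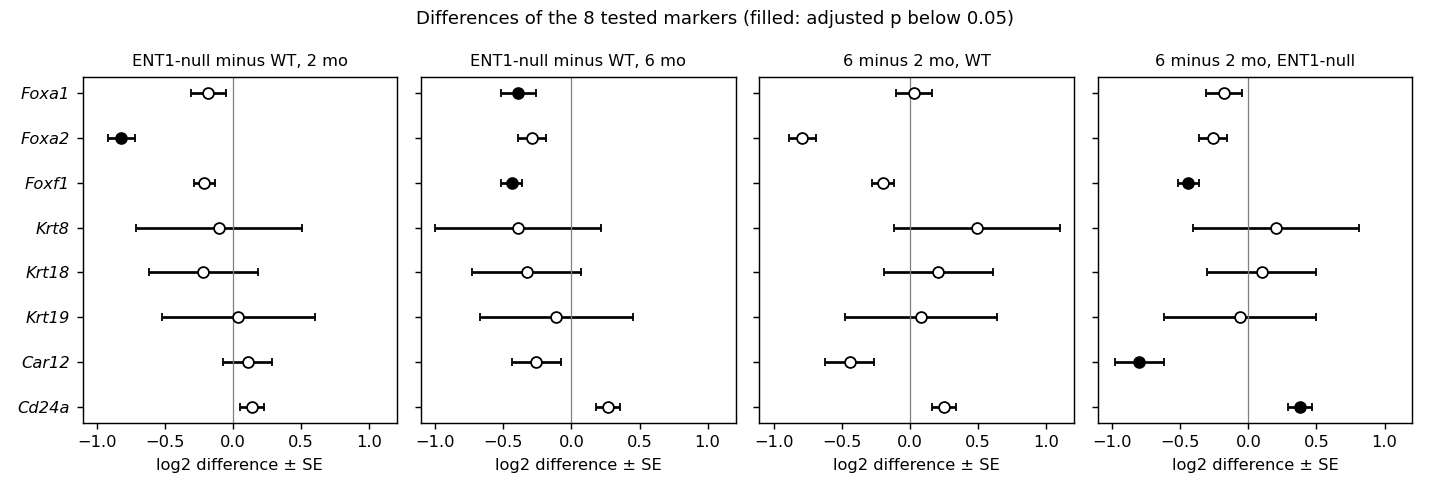
Log2 difference ± SE (horizontal axis) of the 8 tested markers in 4 comparisons: ENT1-null minus WT at 2 and 6 months, and 6 minus 2 months in WT and in ENT1-null pools. Filled points, with a limma adjusted p below 0.05, are Foxa2 at 2 months (-0.82), Foxa1 and Foxf1 at 6 months (-0.39 and -0.44), and Foxf1, Car12 and Cd24a with age in ENT1-null pools.

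Relatives of the markers were read from lists of their families. The list of forkhead relatives held 7 forkhead genes and Fendrr, the long noncoding RNA gene next to Foxf1. Of these 8, 7 fell in ENT1-null pools at 6 months (6 forkhead genes and Fendrr), with a median of -0.44, where 17.6% of all tested genes were called lower. Foxa3 fell by 0.59 ± 0.09 (limma adjusted p = 0.00226), Foxf2 by 0.80 ± 0.14 (0.00354), Foxd1 by 0.90 ± 0.17 (0.00551) and Foxc1 by 0.46 ± 0.11 (0.0118). Without any 1 of the 4 arrays of 6 months, 4 of the 8 were called. Fendrr fell by 0.36 ± 0.11 (limma adjusted p = 0.0373), a call lost under 9 of 16 alternatives. The weakest call was Foxl1, lower by 0.31 ± 0.10 (limma adjusted p = 0.0491), and it was lost under 14 of 15 alternatives. At 2 months none of the 8 was called, where Foxa2 was. An unadjusted limma p below 0.05 was found for 3 of the 8, and for 3008 of all 15526 tested genes. Of 12 carbonic anhydrases besides Car12, 4 were called at 6 months, where 38.8% of all tested genes were. Of these, 2 fell, the mitochondrial Car5b by 1.05 ± 0.09 (limma adjusted p = 0.000427) and Car8 by 1.09 ± 0.13. Another 2 rose, Car2 by 2.13 ± 0.44 and Car1 by 1.92 ± 0.44 (limma adjusted p = 0.00748 and 0.0114), both known as red cell enzymes. The Car1 call was lost without ENT1-null replicate 2 of 6 months (limma adjusted p = 0.0596).

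The 12 other tested notochord and nucleus pulposus genes went in both directions at 6 months, 2 higher and 3 lower, with a median of -0.04, and 38.8% of all tested genes were called at that age. Pax1, a transcription factor of the sclerotome and its disc derivatives more than of the notochord itself, fell by 1.04 ± 0.11 (limma adjusted p = 0.000574). Chrd, the secreted BMP antagonist chordin, fell by 0.67 ± 0.13 (limma adjusted p = 0.00553), and the glucose transporter Slc2a1 by 0.80 ± 0.21 (0.0194). Anxa3, an annexin, rose by 0.64 ± 0.14 and Cdh2, N-cadherin, by 0.88 ± 0.26 (limma adjusted p = 0.0103 and 0.03). At 2 months none of the 12 was called. An unadjusted limma p below 0.05 was found for 3 of the 12, and for 3008 of all 15526 tested genes. Without ENT1-null replicate 1 of 6 months neither Anxa3 nor Cdh2 was called. Cdh2 was also not called without WT replicate 1 of that age, Anxa3 without WT replicate 2, and Slc2a1 without replicate 2 of either genotype.

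Genes with placeholder symbols, such as those starting in Gm or ending in Rik, were passed over, as were some receptor and short RNA families. Among the rest, the genes most like each marker, by Pearson r of the log2 level over the 8 arrays, differed between markers. For Foxa2 they were Serinc5 (r = 0.991), Dqx1 (0.986) and Upk1b (0.984), the last a uroplakin of mesothelium and urothelium. For Foxf1 they were Zdhhc8 (r = 0.996), Chst11 (0.995) and Mia (0.995), the last a protein secreted by chondrocytes. For Foxa1 they were Oaf, Rarb and Zmat3 (r from 0.976 to 0.981). The keratins' nearest genes were Chrm2, Myl7 and Mast4 for Krt8 (0.982 to 0.989), Lypd6b, Adcy5 and Dsp for Krt18 (0.968 to 0.978), and Tmem163, Map2 and Fabp7 for Krt19 (0.968 to 0.97). Car12 was nearest to Mamdc2 (r = 0.965), Jam3 and Ppic, and Cd24a to Gdpd1 (r = 0.99), Hccs and Srsf2. Of all 15525 other tested genes, with none passed over, 1228 lay above r = 0.9 for Foxf1, 262 for Foxa2 and 167 for Foxa1. For Krt8, Krt18 and Krt19 there were 38, 31 and 28. These counts are descriptions over 8 arrays that share 4 groups.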

How the data were processed

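Biotin-labelled cRNA was hybridised to 8 arrays, 1 per pool. The deposited log2 values, 1 per probe set, were made by the authors with RMA per the submitters' processing notes; RMA corrects background, normalizes quantiles between arrays and summarises probes. Its version is not given in the sources used here. Array medians ran from 6.77 to 6.82. Of 41345 probe sets, 23521 had 1 gene symbol. Each of 22180 genes was read from its single-gene probe set with the highest mean, and genes with a mean under the 30th percentile (log2 6.21) were left out, leaving 15526. A fit of 4 group means over all arrays (limma 3.58.1, R 4.3.3, 4 residual degrees of freedom) gave each contrast, with eBayes and Benjamini-Hochberg adjustment over all tested genes, and calls were made at an adjusted p below 0.05. The procedure was tested on simulated data. Alternatives covered the filter, normalization, probe sets, replicate block, variance model and each left-out array.

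The markers and the 16 gene lists were chosen with earlier results of these data known. Named besides the 9 markers were Ptch1, Gli1, Noto, Slc29a1 and up to 4 called genes with the largest statistic from a list. Also named were the 3 genes most correlated with each marker, among those not passed over by name. Dsp, Gpc3, Snap25, Epcam, Cdh1, Cdh2 and the remaining hedgehog, forkhead and carbonic anhydrase genes outside that rule were chosen after their values were seen. Genes named for having or lacking the array order of Krt8 were also outside that rule. The labels give replicate numbers but no shared animal or batch behind them, so arrays were not paired. Gene coordinates, on GRCm38.p6, came from a RefSeq gene table.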

Additional observations from a re-analysis of the deposited data

Results flagged for a closer look

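The genotype difference changed with age, by a limma test of the interaction, in 7 genes of the hedgehog, notochord, forkhead and carbonic anhydrase lists, all with a lower ENT1-null level relative to WT at 6 than at 2 months. The changes on the log2 scale were -0.78 for Ptch1, -1.45 for Hhip, -0.94 for Boc and -0.65 for Gli2 in the hedgehog pathway, -0.76 for Pax1, -0.66 for Foxa3 and -0.68 for Car5b. Each of these 7 calls was lost when any 1 of the 8 arrays was left out, and with no filter on low values. In the cartilage and annulus lists, 6 of 17 and 2 of 14 genes were also called lower in this test, where 4.45% of all tested genes were called.

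A second probe set of Cd24a, not used for the values above, was higher in both ENT1-null pools than in both WT pools at each age, by 0.10 at 2 months and 0.25 at 6 months on the log2 scale. These differences were not tested. At 6 months 35.6% of all tested genes were higher in ENT1-null pools without overlap. At 2 months the closest arrays of this probe set were 10.12 (ENT1-null) and 10.09 (WT). The probe set used overlapped between genotypes at that age.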

How the results depend on the processing

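At 2 months, 106 genes were called in ENT1-null against WT pools (46 higher, 60 lower). The count was 29 with no filter (11 higher, 18 lower), 161 with arrays centred on their medians (96 higher, 65 lower), 259 with a trended robust variance model, 0 when only the 4 arrays compared were fitted, 0 over all probe sets, and 0 to 358 without 1 array. Marker calls at 2 months went from 1 to 0 in the 4-array fit and over all probe sets, and were 0 to 1 without 1 array. Foxa2 had limma adjusted p = 0.0598 and 0.117 in those fits, and 0.247 without WT replicate 1 of 2 months. At 6 months the 2 marker calls became 1 with no filter, in the 4-array fit and over all probe sets, and 1 to 3 without 1 array, while gene calls numbered 6022, and 3670 to 5887 without 1 array. Splits of higher to lower at 6 months were 3295 to 2727, and 3606 to 2293 after centring and 2923 to 3059 after a further quantile normalization. For the interaction, 691 genes (398 higher, 293 lower) became 11 with no filter, 1102 with the trended robust model, 0 over all probe sets and 0 to 319 without 1 array, and split 299 to 407 after quantile normalization and 600 to 308 after centring; marker calls were 0 throughout. Age in WT gave 0 calls under every alternative. Age in ENT1-null pools gave 3442 gene calls, 1519 to 3160 without 1 array, and 3 marker calls, 0 to 3 without 1 array; the split of 1853 to 1589 became 1596 to 1772 after quantile normalization. The causes of these shifts were not tested.

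With the replicate number as a block, gene calls were 1 at 2 months and 353 for the interaction, and marker calls were 0 at 2 months and 1 at 6 months. The deviations of same-numbered arrays correlated between -0.39 and 0.41 across the 6 pairs of groups. The value of 0.41 was for the WT and ENT1-null groups of 2 months. These correlations cannot decide whether same-numbered pools were handled together, and no label ties the numbers to a shared animal or batch.

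Reversals of direction came from leaving out 1 array. Without 1 array, the genotype difference at 2 months ran from -0.45 to 0.25 for Krt8, -0.55 to 0.10 for Krt18, -0.38 to 0.45 for Krt19 and -0.17 to 0.39 for Car12. At 6 months it ran from -1.42 to 0.63, -0.89 to 0.23 and -0.97 to 0.75 for Krt8, Krt18 and Krt19. The interaction ran from -1.32 to 0.74, -0.67 to 0.46 and -1.01 to 0.71 for the same 3. Age in WT ran from -0.09 to 0.15 for Foxa1, -0.20 to 0.61 for Krt18 and -0.41 to 0.58 for Krt19, and age in ENT1-null pools from -0.83 to 1.23, -0.46 to 0.66 and -0.92 to 0.80 for Krt8, Krt18 and Krt19. Hedgehog genes called lower at 6 months numbered 11, and 10 to 12 without 1 array, settings chosen after seeing the data.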
